A study of Mus musculus with 9 samples.

Results

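The NF-kB transcription factors and their IkB inhibitors were described in the mouse kidney through 10 genes, taken by symbol from the 34310 genes of the deposited table. Of the 10, 5 encode NF-kB subunits and 5 encode IkB proteins. The subunits are Rela, Relb, Rel, Nfkb1 and Nfkb2, and the IkB proteins are encoded by Nfkbia, Nfkbib, Nfkbie, Nfkbiz and Bcl3. Each symbol matched 1 row, and 10 of 10 passed the expression filter that left 15015 genes to be tested. The counts behind their values ran from 86, for Rel in a saline library, to 11423, for Rela in an LPS library.

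Kidney RNA came from 9 mice in 3 groups of 3. The first received both bacterial endotoxin (lipopolysaccharide, LPS) and thymosin β4, a small actin-binding peptide, and is written LPS+Tβ4. The others were given LPS alone or saline. Strain, sex, doses, route and timing are not in the labels, so a difference between groups cannot be placed at any hour after the endotoxin.

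Libraries held 53.0 to 62.0 M counts. Kidney identity was visible in each of them: the 10 proximal tubule markers summed to 5400 to 14010 CPM (counts per M counts, after TMM scaling) in LPS+Tβ4 libraries, 5718 to 19880 CPM in LPS libraries and 28880 to 30580 CPM in saline libraries. In LPS against saline 7 of these 10 genes fell, beside 22.2% of all tested genes. The largest part of the sum in every library was Kap. It had 3352 to 10700 CPM in LPS+Tβ4 libraries, 4299 to 14490 CPM in LPS libraries and 14460 to 16600 CPM in saline libraries. Libraries also differed in urothelial transcripts: 5 uroplakin genes summed to 1.03, 0.758 and 65.9 CPM in the LPS+Tβ4 libraries, 55.1, 46.2 and 0.930 CPM in the LPS libraries and 2.13, 87.0 and 74.5 CPM in the saline libraries. Neural and glial markers, 9 genes, summed to 519 to 626 CPM in LPS+Tβ4 libraries, 31.4 to 185 CPM in LPS libraries and 62.7 to 70.0 CPM in saline libraries. Endothelial markers, also 9 genes, summed to 154 to 345 CPM in LPS+Tβ4 libraries, 165 to 353 CPM in LPS libraries and 322 to 398 CPM in saline libraries. Erythroid markers, 5 genes, summed to 182 to 263 CPM in LPS+Tβ4 libraries, 536 to 707 CPM in LPS libraries and 547 to 692 CPM in saline libraries. In LPS+Tβ4 against LPS 5 of 5 fell, beside 2.33% of all tested genes. Markers of other nephron segments, 11 genes, summed to 1862 to 4201 CPM in LPS+Tβ4 libraries, 974 to 3266 CPM in LPS libraries and 4616 to 5690 CPM in saline libraries. In LPS against saline 9 of these 11 fell, beside 22.2% of all tested genes. Umod was the largest part of that sum in every library. It had 839 to 2362 CPM in LPS+Tβ4 libraries, 421 to 2804 CPM in LPS libraries and 1764 to 2609 CPM in saline libraries. What part these differences had in the results was not tested, except where a uroplakin term or a left-out library is given below. The samples are bulk tissue, in which fewer cells of a type and less RNA per cell cannot be told apart.

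In resting cells, dimers of the Rel family are held in the cytoplasm by IkB proteins. A signal from Toll-like or cytokine receptors activates the IkB kinase (IKK) complex, which phosphorylates the inhibitor, and the inhibitor is then ubiquitinated and degraded so that the dimer enters the nucleus. Several subunit and inhibitor genes, above all Nfkbia, are themselves NF-kB targets, which gives the pathway its negative feedback. Nfkbiz and Bcl3 encode atypical IkB proteins that act in the nucleus and can aid as well as restrain transcription.

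Upstream sequences of the set are shown because its members moved together in LPS kidneys and several of them are textbook NF-kB targets. RefSeq promoter entries of build GRCm38.p6 were matched by symbol for 7 of the 10 members, all but Relb, Nfkb1 and Nfkbiz. The 250 bases before each annotated start site were searched on both strands for the consensus kB motif, a 10-base site. Of the 7 members, 4 held a match (Rel, Nfkb2, Nfkbia and Nfkbie). In all promoter entries, 7.25% of 32851 windows of the same length held one, as did 10.5% of the 10499 tested genes with an entry. For each of the 4, a window with a match is printed 5′ to 3′ on the strand of the gene, with the matched bases in capitals, and the Bcl3 window is added because Bcl3 had the largest rise of the set and no match. Overlapping matches on the 2 strands run together as 1 stretch of capitals. The windows are Rel (chr11:23770970-23771219, minus strand), the first of 3 Nfkb2 start sites (chr19:46304487-46304736, plus strand), Nfkbia (chr12:55492648-55492897, minus strand), Nfkbie (chr17:45555450-45555699, plus strand) and Bcl3 (chr7:19822756-19823005, minus strand).
Rel: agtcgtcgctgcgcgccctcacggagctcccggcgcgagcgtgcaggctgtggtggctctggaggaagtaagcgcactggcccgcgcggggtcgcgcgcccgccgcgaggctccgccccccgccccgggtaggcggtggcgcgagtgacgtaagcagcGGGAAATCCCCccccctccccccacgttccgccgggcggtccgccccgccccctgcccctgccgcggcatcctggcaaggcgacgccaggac
Nfkb2: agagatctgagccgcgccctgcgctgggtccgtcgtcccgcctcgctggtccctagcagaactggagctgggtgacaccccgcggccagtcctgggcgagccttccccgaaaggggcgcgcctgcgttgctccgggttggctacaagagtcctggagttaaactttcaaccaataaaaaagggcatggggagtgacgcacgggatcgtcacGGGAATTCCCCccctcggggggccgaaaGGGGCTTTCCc
Nfkbia: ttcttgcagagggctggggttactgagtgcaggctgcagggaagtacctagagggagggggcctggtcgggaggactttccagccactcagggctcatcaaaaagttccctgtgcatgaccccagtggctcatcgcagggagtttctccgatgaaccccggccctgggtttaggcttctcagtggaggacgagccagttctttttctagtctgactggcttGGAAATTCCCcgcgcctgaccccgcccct
Nfkbie: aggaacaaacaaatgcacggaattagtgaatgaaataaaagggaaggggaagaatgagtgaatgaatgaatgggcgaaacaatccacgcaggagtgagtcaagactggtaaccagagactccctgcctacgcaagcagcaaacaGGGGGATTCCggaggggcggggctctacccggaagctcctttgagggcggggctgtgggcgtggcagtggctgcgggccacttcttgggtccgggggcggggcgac
Bcl3: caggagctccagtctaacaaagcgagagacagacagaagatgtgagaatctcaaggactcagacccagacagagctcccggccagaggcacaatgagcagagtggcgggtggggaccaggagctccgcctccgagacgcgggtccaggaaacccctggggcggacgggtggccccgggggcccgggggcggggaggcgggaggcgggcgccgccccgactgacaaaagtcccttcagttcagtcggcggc
The match nearest to its start site began 11 bases upstream in Nfkb2, in a window with a further stretch 39 bases upstream. That start site is from RefSeq, and its window lies inside the GENCODE span of Nfkb2 given below (chr19:46304320-46312385). In Nfkbia the match began 29 bases upstream, in Rel 92 and in Nfkbie 106. No match lay in the windows of Rela, Nfkbib and Bcl3, which says only that these letters are not in those bases. A match is a description of the sequence and no measure of binding.

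The transcript levels were compared between genes as FPKM, which divides by transcript length. Nfkbia and Rela were the highest of the 10 in every group. Nfkbia averaged 37.8 ± 17.1 FPKM in LPS+Tβ4 kidneys, 51.2 ± 12.8 FPKM in LPS kidneys and 7.67 ± 1.78 FPKM in saline kidneys (SD, n = 3 each). Rela averaged 20.1 ± 3.13 FPKM in LPS+Tβ4 kidneys, 39.6 ± 14.8 FPKM in LPS kidneys and 7.91 ± 0.997 FPKM in saline kidneys. The ranges of these 2 genes overlapped in the LPS and saline groups and did not in the LPS+Tβ4 group. Rel was the lowest in every group, at 0.868 ± 0.234 FPKM in LPS+Tβ4 kidneys, 1.57 ± 0.462 FPKM in LPS kidneys and 0.287 ± 0.123 FPKM in saline kidneys.

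The middle of the order differed between the groups. Bcl3 ranked 3 of 10 in LPS+Tβ4 kidneys, at 16.7 ± 2.57 FPKM, 4 in LPS kidneys, at 14.0 ± 0.457 FPKM, and 8 in saline kidneys, at 0.861 ± 0.114 FPKM. Nfkbiz ranked 4 in LPS+Tβ4 kidneys (14.6 ± 1.74 FPKM), 3 in LPS kidneys (25.5 ± 6.40 FPKM) and 5 in saline kidneys (1.91 ± 0.374 FPKM). Of neighbouring places, Nfkbiz and Bcl3 had separate ranges in LPS kidneys and overlapped in LPS+Tβ4 kidneys. Nfkbib, Nfkb2, Relb, Nfkb1 and Nfkbie lay between 2.89 and 12.7 FPKM on average in the LPS+Tβ4 and LPS groups. Within that stretch Nfkbib and Nfkb2 overlapped in both of those groups, as did Relb and Nfkb1. In saline kidneys Nfkbib, Nfkb1, Nfkbiz and Nfkb2 formed a run in which each overlapped the next.

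**Figure D1:**
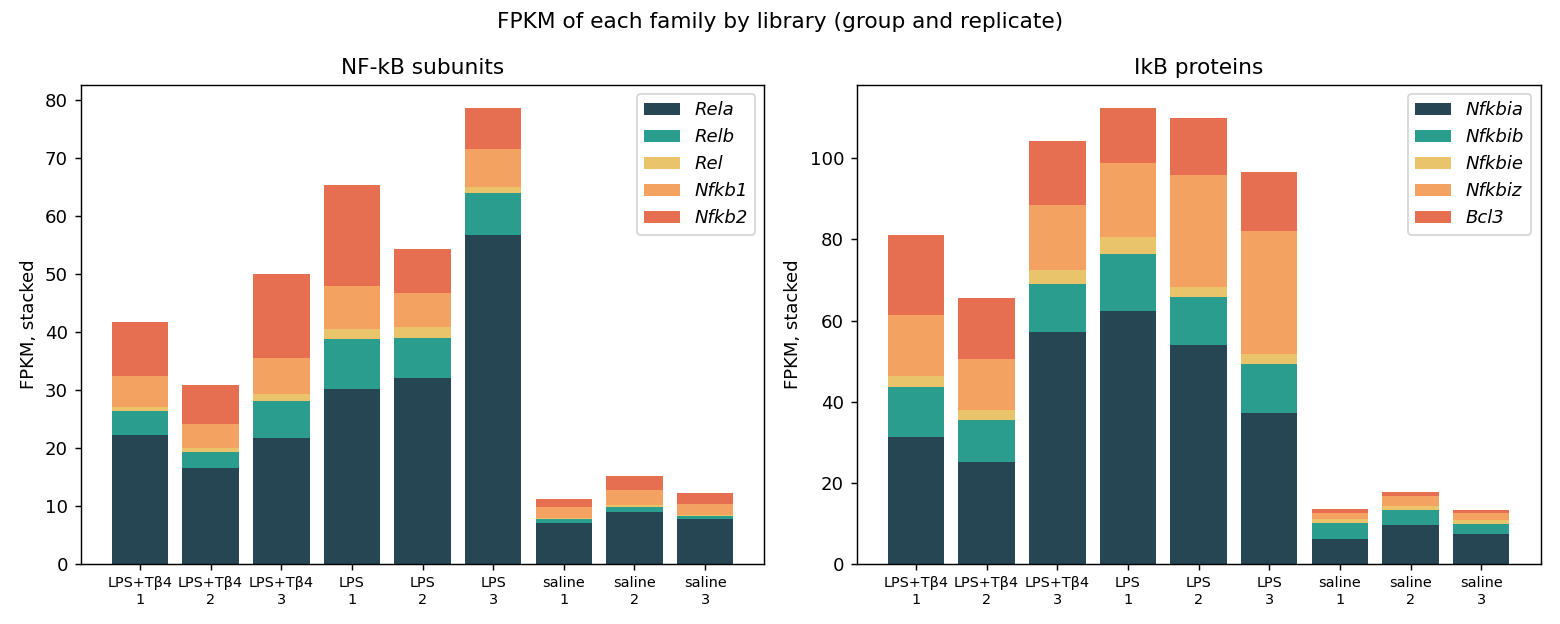
Stacked FPKM of the 5 subunit genes (left) and the 5 IkB genes (right) in each of the 9 libraries, labelled by group and replicate number. The subunit stacks of the LPS+Tβ4 libraries reach 30.8 to 49.9 FPKM, below those of the LPS libraries (54.4 to 78.7 FPKM) and above those of the saline libraries (11.3 to 15.1 FPKM).

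Summed over the subunits, the level was 41.7, 30.8 and 49.9 FPKM in LPS+Tβ4 kidneys, 65.3, 54.4 and 78.7 FPKM in LPS kidneys and 11.3, 15.1 and 12.2 FPKM in saline kidneys. The 3 groups did not overlap in this sum. The IkB genes summed to 81.1, 65.6 and 104 FPKM in LPS+Tβ4 kidneys, 112.5, 109.9 and 96.6 FPKM in LPS kidneys and 13.4, 17.7 and 13.3 FPKM in saline kidneys. Here the LPS+Tβ4 and LPS groups overlapped through 1 LPS+Tβ4 library, the third. Both sums are of the authors' FPKM, used without TMM scaling, and that library had the largest TMM factor, 1.164. What part scaling had in the overlap was not tested.

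LPS was set against saline to see how endotoxin alters these transcripts. All 10 members rose, in a comparison in which 20.9% of tested genes were called higher and 22.2% lower, and in all 10 every LPS library lay above every saline library, as was so for 25.8% of tested genes. The median log2 change was 2.31 over the members (2.30 over the subunits and 2.58 over the IkB genes), beside 0.02 over all tested genes. Changes reached from 1.48, for Nfkb1 and Nfkbie, to 3.86, for Bcl3. Tests are edgeR quasi-likelihood tests with Benjamini-Hochberg adjustment over 15015 genes, and they measure the spread between mice, with n = 3 in each group.

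LPS+Tβ4 was set against LPS to see whether the peptide altered the response to endotoxin. None of the 10 members passed the test, in a comparison in which 6.83% of tested genes were called, 4.5% higher and 2.33% lower. At an unadjusted p under 0.05, 5 of the 10 were lower (Rela, Relb, Rel, Nfkb1 and Nfkbiz), beside 11.5% of tested genes, and the same 5 had every LPS+Tβ4 library below every LPS library, beside 11.9% of tested genes. DESeq2 called 4 of the 10 lower (Rela, Relb, Rel and Nfkbiz), beside 1072 of its 14952 tested genes. From limma came 0, beside 251 of 15015 tested genes called lower on log2(FPKM + 1) and 209 on log2(FPKM + 0.1). The log2 change was negative for 9 of 10 members, with a median of -0.46 (-0.84 over the subunits and -0.17 over the IkB genes) beside -0.01 over all tested genes. Both comparisons use the same LPS libraries, so a chance high value there raises one change and lowers the other.

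**Figure D2:**
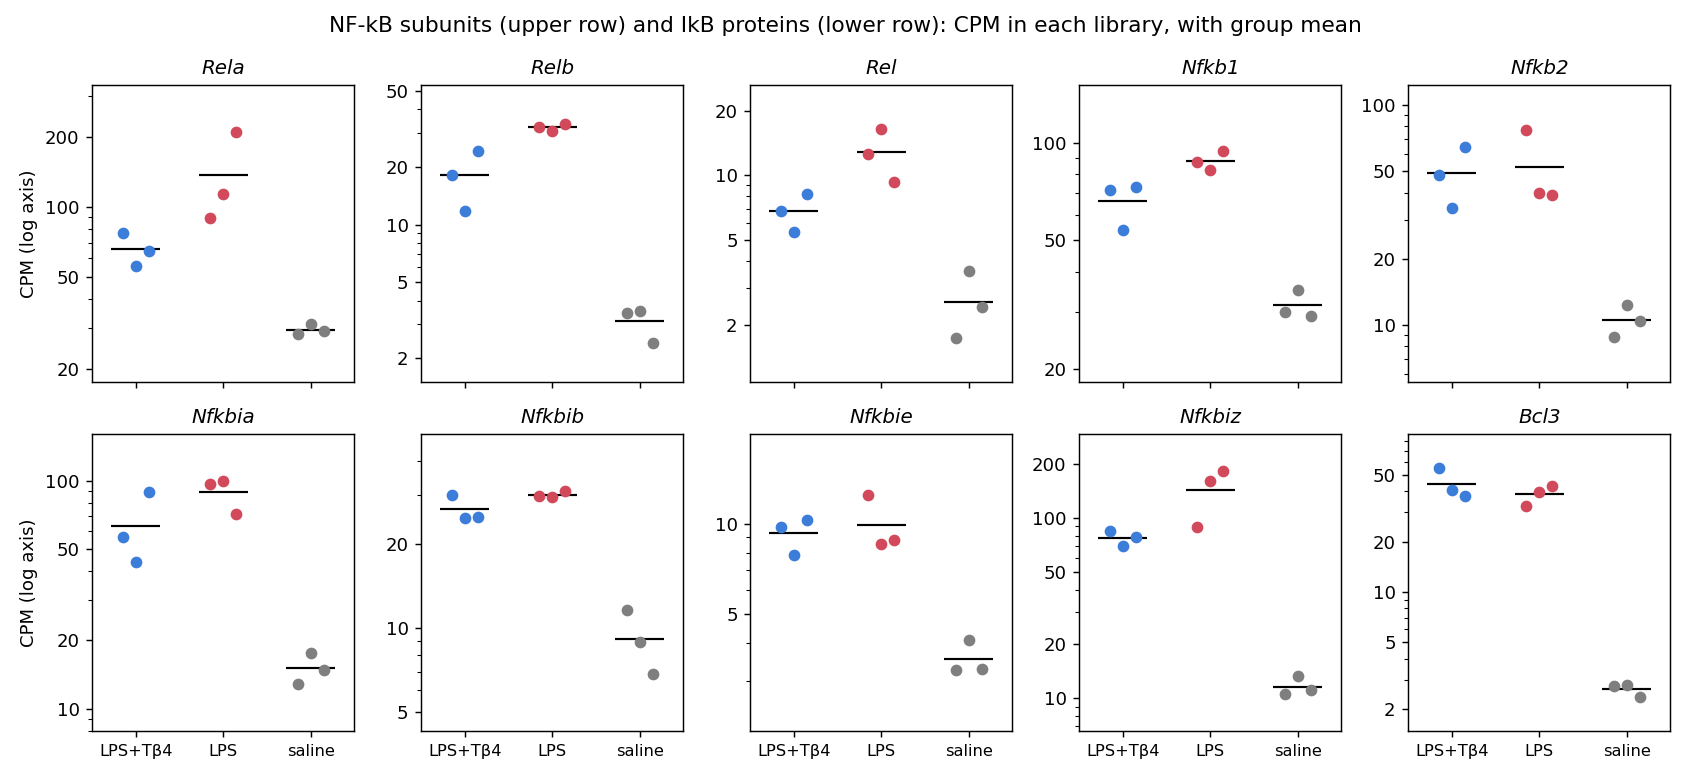
CPM of each member in each library on log axes, subunits in the upper row and IkB proteins in the lower, with groups from left to right LPS+Tβ4, LPS and saline and a line at the group mean (n = 3). Saline points lie below all other points in all 10 panels, and the LPS+Tβ4 points lie below the LPS points in the panels of Rela, Relb, Rel, Nfkb1 and Nfkbiz.

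Rela (ENSMUSG00000024927, GRCm38 chr19:5637483-5648130, plus strand) encodes the main transactivating subunit of the classical pathway. It was measured at 76.7, 55.5 and 64.6 CPM in LPS+Tβ4 kidneys, 89.8, 113 and 208 CPM in LPS kidneys and 28.3, 31.5 and 29.3 CPM in saline kidneys. The groups did not overlap, and 1 LPS library, the third, lay far above the other two. In LPS against saline Rela rose 4.62-fold (log2 change 2.21 ± 0.30, SE, edgeR adjusted p = 0.00075). Set against LPS, the LPS+Tβ4 kidneys had a log2 change of -1.06, with a 95% interval of -1.72 to -0.41 and an adjusted p of 0.063. With 1 library left out the change ran from -1.30 without the first LPS library (adjusted p = 0.015) to -0.63 without the third LPS library (adjusted p = 0.081), and the adjusted p was highest, 0.23, without the second LPS+Tβ4 library. Rela was also called lower with a term for uroplakin level, an alternative chosen after seeing the data (adjusted p = 0.046).

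Relb (ENSMUSG00000002983, chr7:19606217-19629438, minus strand) encodes a transactivating subunit that pairs with the Nfkb2 product in the alternative pathway. Its levels were 18.2, 11.8 and 24.2 CPM in LPS+Tβ4 kidneys, 32.3, 30.9 and 33.6 CPM in LPS kidneys and 3.43, 3.51 and 2.40 CPM in saline kidneys. LPS libraries were close together, LPS+Tβ4 libraries were spread, and the 3 ranges stood apart. Relb rose 10.4-fold in LPS kidneys, the largest rise among the subunits (log2 change 3.37 ± 0.29, edgeR adjusted p = 0.00011). Against LPS, the LPS+Tβ4 change was -0.84 (95% interval -1.43 to -0.24, adjusted p = 0.092), and with 1 library left out it ran from -1.13 without the third LPS+Tβ4 library (adjusted p = 0.044) to -0.61 without the second (adjusted p = 0.25).

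Rel (ENSMUSG00000020275, chr11:23736847-23770970, minus strand) encodes c-Rel, best known from lymphocytes and myeloid cells. It stood at 6.84, 5.45 and 8.15 CPM in LPS+Tβ4 kidneys, 12.6, 16.5 and 9.31 CPM in LPS kidneys and 1.74, 3.58 and 2.42 CPM in saline kidneys. The lowest LPS library lay only a little above the highest LPS+Tβ4 library. Its rise in LPS kidneys was 4.95-fold (log2 change 2.31 ± 0.34, edgeR adjusted p = 0.0011), and the LPS+Tβ4 change against LPS was -0.91 (95% interval -1.65 to -0.16, adjusted p = 0.13).

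Markers of the blood cells in which Rel is best known were counted in the same libraries. The pan-leukocyte gene Ptprc had 10.8, 8.31 and 9.30 CPM in LPS+Tβ4 kidneys, 3.17, 6.29 and 7.04 CPM in LPS kidneys and 14.7, 11.8 and 8.95 CPM in saline kidneys. Ptprc was lowest in the LPS libraries, but it was below the expression filter and was not tested. The T cell gene Cd3e was at 0 in 4 of the 6 libraries given LPS and at 0.0807 and 0.138 CPM in the other two, and the B cell gene Ms4a1 was at 0 in all 3 LPS libraries. In LPS against saline 4 myeloid genes rose (Itgam, Cd68, S100a8 and S100a9) and 2 macrophage genes fell (Adgre1 and Csf1r). These were the 6 tested of the 16 leukocyte markers. Among all tested genes, 20.9% rose and 22.2% fell there. The summed level of the 16 was 91.0 to 146 CPM in LPS+Tβ4 libraries, 83.4 to 87.1 CPM in LPS libraries and 48.8 to 87.5 CPM in saline libraries, and its part in the results for Rel was not tested.

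Nfkb1 (ENSMUSG00000028163, chr3:135584655-135691546, minus strand) encodes a precursor that is cut to a short DNA-binding subunit without a transactivation domain. Libraries held 71.5, 54.0 and 73.0 CPM in LPS+Tβ4 kidneys, 87.2, 82.5 and 94.4 CPM in LPS kidneys and 30.0, 35.1 and 29.3 CPM in saline kidneys. Both LPS-treated groups were well above saline and apart from each other. Its rise in LPS kidneys, 2.80-fold, was the smallest among the subunits (log2 change 1.48 ± 0.15, edgeR adjusted p = 0.00022). The LPS+Tβ4 change against LPS was -0.41 (95% interval -0.75 to -0.08, adjusted p = 0.13).

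Nfkb2 (ENSMUSG00000025225, chr19:46304320-46312385, plus strand) encodes the precursor of the alternative pathway, which also restrains Relb until it is processed. Levels were 48.3, 34.0 and 64.5 CPM in LPS+Tβ4 kidneys, 77.2, 40.0 and 38.9 CPM in LPS kidneys and 8.82, 12.4 and 10.5 CPM in saline kidneys. The first LPS library was far above the other two, and the LPS+Tβ4 and LPS ranges overlapped widely. It rose 4.93-fold in LPS kidneys (log2 change 2.30 ± 0.34, edgeR adjusted p = 0.0011). The LPS+Tβ4 change against LPS was -0.09 (95% interval -0.82 to 0.64, adjusted p = 0.90) and became 0.31 without the first LPS library, so no direction is given.

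Exons of 2 genes on the opposite strand overlap those of Nfkb2: Psd shares 299 of its 4584 exonic bases and 4833438C02Rik shares 531. The libraries were made with a strand-marking kit, but the strand setting of the counting is not given in the sources used here, so reads of these genes may be mixed. Psd had 12.1, 11.4 and 16.7 CPM in LPS+Tβ4 kidneys, 16.2, 4.76 and 6.53 CPM in LPS kidneys and 3.77, 3.79 and 5.08 CPM in saline kidneys. It was high in the same LPS and LPS+Tβ4 libraries in which Nfkb2 was highest, and these were also the libraries with the lowest proximal tubule sums of their groups (5400 CPM in the third LPS+Tβ4 library and 5718 CPM in the first LPS library). 4833438C02Rik, with the larger overlap, had 16.1, 10.8 and 14.0 CPM in LPS+Tβ4 kidneys, 13.3, 16.9 and 17.7 CPM in LPS kidneys and 6.10, 4.95 and 7.75 CPM in saline kidneys. It was lowest of its group in the first LPS library, where Nfkb2 was highest, and it rose in LPS against saline (log2 change 1.35 ± 0.24, edgeR adjusted p = 0.0026), as Nfkb2 did. What part either gene or the tubule sums had in the Nfkb2 values was not tested. Overlaps on the opposite strand also exist for Nfkbib with Ccer2 (314 of 2169 exonic bases), whose mean over the 9 libraries was 0.00712 FPKM, and for Bcl3 with Gm16175 (161 of 2475 exonic bases).

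The classical cytoplasmic inhibitors are the products of Nfkbia, Nfkbib and Nfkbie. Nfkbia (ENSMUSG00000021025, chr12:55489410-55492647, minus strand) encodes IkBα, the fast feedback inhibitor. It had 56.7, 44.0 and 89.3 CPM in LPS+Tβ4 kidneys, 97.0, 100.2 and 71.6 CPM in LPS kidneys and 12.8, 17.6 and 14.7 CPM in saline kidneys. The third LPS+Tβ4 library lay inside the LPS range, and the other two lay below it. Nfkbia rose 5.97-fold in LPS kidneys (log2 change 2.58 ± 0.28, edgeR adjusted p = 0.00029), and its LPS+Tβ4 change against LPS was -0.50 (95% interval -1.10 to 0.10, adjusted p = 0.28).

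Nfkbib (ENSMUSG00000030595, chr7:28758251-28766640, minus strand) encodes IkBβ, which binds a similar set of dimers and is less tied to feedback. Its libraries read 30.2, 24.9 and 25.02 CPM in LPS+Tβ4 kidneys, 29.8, 29.5 and 31.1 CPM in LPS kidneys and 11.6, 8.91 and 6.86 CPM in saline kidneys. The first LPS+Tβ4 library lay inside the LPS range. The rise in LPS kidneys was 3.30-fold (log2 change 1.72 ± 0.20, edgeR adjusted p = 0.00038), and the LPS+Tβ4 change against LPS was -0.17 (95% interval -0.61 to 0.27, adjusted p = 0.62).

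Nfkbie (ENSMUSG00000023947, chr17:45555703-45563169, plus strand) encodes IkBε, a slower feedback inhibitor. Values were 9.78, 7.86 and 10.3 CPM in LPS+Tβ4 kidneys, 12.4, 8.54 and 8.80 CPM in LPS kidneys and 3.27, 4.10 and 3.27 CPM in saline kidneys. The LPS+Tβ4 and LPS libraries were interleaved. Nfkbie rose 2.80-fold in LPS kidneys (log2 change 1.48 ± 0.23, edgeR adjusted p = 0.0015), and the LPS+Tβ4 change against LPS, -0.09 (95% interval -0.61 to 0.42, adjusted p = 0.84), turned to 0.10 without the first LPS library.

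The 2 nuclear IkB genes had the largest rises of the set in LPS kidneys, with Relb next and within the interval of Nfkbiz. Nfkbiz (ENSMUSG00000035356, chr16:55811375-55838899, minus strand) encodes IkBζ, which is needed for a group of secondary inflammatory genes in macrophages. Its levels were 85.3, 69.8 and 78.5 CPM in LPS+Tβ4 kidneys, 89.0, 160.0 and 183.0 CPM in LPS kidneys and 10.6, 13.3 and 11.1 CPM in saline kidneys. The first LPS library was close to the LPS+Tβ4 libraries, while the other two were well above them. The rise in LPS kidneys was 12.3-fold (log2 change 3.63 ± 0.27, edgeR adjusted p = 8.2e-05). Against LPS, the LPS+Tβ4 change was -0.89 (95% interval -1.45 to -0.32, adjusted p = 0.068), and with 1 library left out it ran from -1.14 without the first LPS library (adjusted p = 0.0044) to -0.68 without the third LPS library (adjusted p = 0.15). Without the second LPS+Tβ4 library the adjusted p was 0.24.

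Bcl3 (ENSMUSG00000053175, chr7:19808462-19822770, minus strand) encodes a nuclear partner of the short subunits. It had 55.0, 40.6 and 37.4 CPM in LPS+Tβ4 kidneys, 32.5, 39.7 and 42.8 CPM in LPS kidneys and 2.76, 2.78 and 2.37 CPM in saline kidneys. It was the 1 member with a higher mean in LPS+Tβ4 than in LPS kidneys, and those ranges overlapped. Bcl3 rose 14.5-fold in LPS kidneys (log2 change 3.86 ± 0.20, edgeR adjusted p = 2.7e-05), and its LPS+Tβ4 change against LPS was 0.21 (95% interval -0.20 to 0.62, adjusted p = 0.51).

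**Figure D3:**
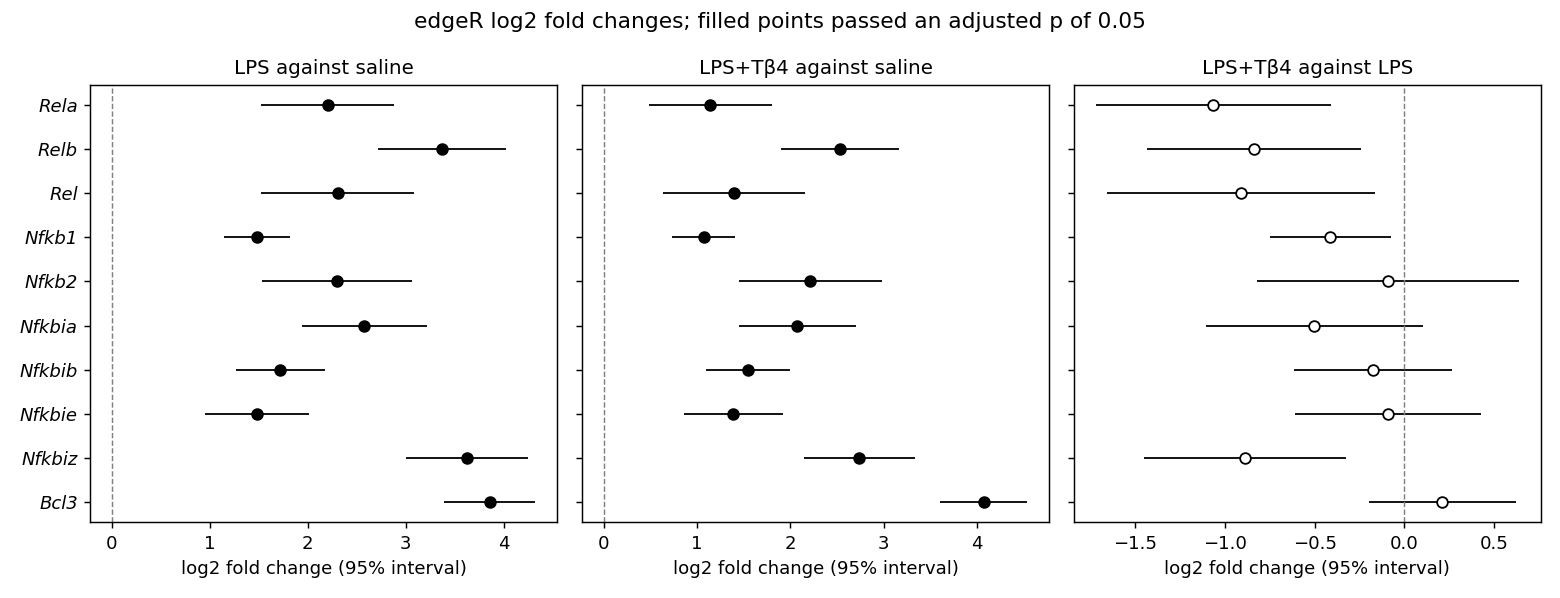
edgeR log2 fold changes of the 10 members with 95% intervals in 3 comparisons, filled where the adjusted p was under 0.05. All points are filled and above 0 in LPS against saline and in LPS+Tβ4 against saline; in LPS+Tβ4 against LPS none is filled, and the intervals of Rela, Relb, Rel, Nfkb1 and Nfkbiz lie below 0.

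In LPS+Tβ4 against saline, all 10 members rose, in a comparison in which 12.3% of tested genes were called higher, and the ranges were apart for all 10, beside 24.7% of tested genes. Their median log2 change was 1.81. The smallest changes were those of Nfkb1 (1.07 ± 0.15, edgeR adjusted p = 0.0018) and Rela (1.14 ± 0.29, adjusted p = 0.022). Bcl3 had the largest, 4.07 ± 0.21 (adjusted p = 8.8e-05), a 16.8-fold rise. Nfkbiz rose by 2.74 ± 0.26 and Relb by 2.54 ± 0.28, with adjusted p of 0.00046 and 0.00074. The call of Rela was lost without any 1 of the 3 saline libraries or without the first LPS+Tβ4 library (adjusted p = 0.060 to 0.077), and with the urothelial covariate (adjusted p = 0.15). The call of Rel, whose adjusted p was 0.017, was lost without the first or the third saline library or the first LPS+Tβ4 library (adjusted p = 0.051 to 0.058), and with that covariate (adjusted p = 0.12). With the uroplakin covariate, chosen after seeing the data, both were called (edgeR adjusted p = 0.031 for Rela and 0.0027 for Rel).

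The makeup of the 2 families was compared as ratios of FPKM, described without a test. Bcl3 to Nfkbiz was 1.31, 1.18 and 0.965 in LPS+Tβ4 kidneys, 0.739, 0.503 and 0.473 in LPS kidneys and 0.518, 0.424 and 0.428 in saline kidneys. The LPS+Tβ4 libraries stood apart from both other groups, which overlapped. Relb to Rela was 0.187, 0.168 and 0.297 in LPS+Tβ4 kidneys, 0.285, 0.215 and 0.128 in LPS kidneys and 0.0942, 0.0867 and 0.0642 in saline kidneys. For Nfkb2 to Nfkb1 the ratios were 1.78, 1.65 and 2.32 in LPS+Tβ4 kidneys, 2.33, 1.28 and 1.08 in LPS kidneys and 0.770, 0.922 and 0.940 in saline kidneys. Both ratios of an alternative-pathway subunit to a classical one were above saline in all 6 libraries given LPS, and the LPS+Tβ4 and LPS groups overlapped in each.

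**Figure D4:**
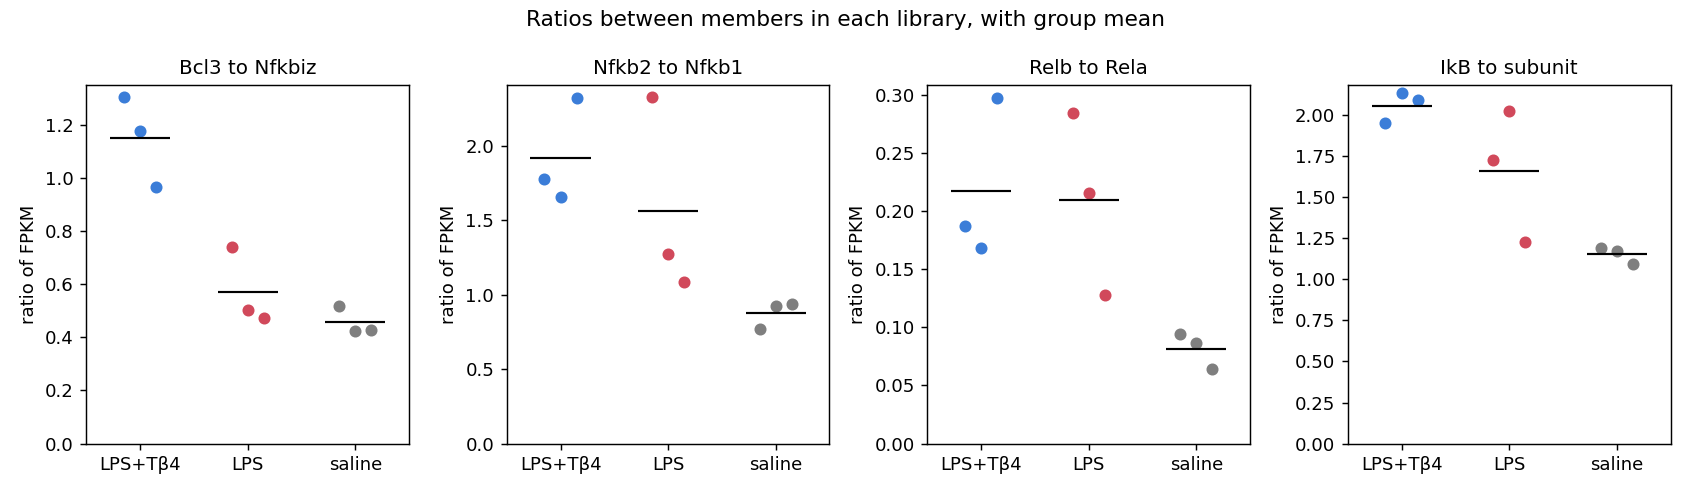
Ratios of FPKM between members in each library, with a line at the group mean (n = 3) and groups from left to right LPS+Tβ4, LPS and saline. In the panel of Bcl3 to Nfkbiz the LPS+Tβ4 points (0.965 to 1.31) lie above the LPS points (0.473 to 0.739), while in the other 3 panels these groups overlap.

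The summed IkB genes stood to the summed subunit genes as 1.95, 2.13 and 2.09 in LPS+Tβ4 kidneys, 1.72, 2.02 and 1.23 in LPS kidneys and 1.19, 1.17 and 1.09 in saline kidneys. Every library given LPS was above every saline library, and the LPS+Tβ4 and LPS ranges overlapped. Of the subunit sum, Nfkb1 made up 12.8 ± 0.425% in LPS+Tβ4 kidneys, 10.2 ± 1.66% in LPS kidneys and 16.6 ± 0.519% in saline kidneys, with no overlap between groups. Relb made up 10.6 ± 2.02% in LPS+Tβ4 kidneys, 11.7 ± 2.15% in LPS kidneys and 5.03 ± 0.941% in saline kidneys. Of the IkB sum, Nfkbib made up 14.2 ± 2.46% in LPS+Tβ4 kidneys, 11.9 ± 1.03% in LPS kidneys and 23.4 ± 6.24% in saline kidneys. These shares move with Rela and Nfkbia, which hold the largest parts of the 2 sums.

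Genes upstream of the members were followed through a list of the IKK complex and the kinases and adaptors that feed it. In LPS against saline, 10 of 15 tested genes rose and 0 fell, beside 20.9% and 22.2% of all tested genes. The median log2 change of the 15 was 0.77. Ikbkb, the catalytic subunit of the classical pathway, rose by 0.56 ± 0.12 (edgeR adjusted p = 0.0054), and Ikbkg, the regulatory subunit NEMO, by 0.77 ± 0.13 (adjusted p = 0.0019). Chuk, the catalytic subunit used by the alternative pathway, had a log2 change of -0.23 ± 0.24 (adjusted p = 0.46). Larger rises were those of Map3k8, a kinase of the Toll-like receptor pathway (3.62 ± 0.48), Ikbke (1.85 ± 0.32), Ripk2 (1.41 ± 0.33), Tbk1 (1.30 ± 0.18) and Map3k14, the kinase NIK of the alternative pathway (1.23 ± 0.18). Of the 15, 1 passed in LPS+Tβ4 against LPS, a share near the 6.83% of all tested genes. This was Tbk1, which also drives interferon induction, averaged 45.6 ± 2.21 CPM in LPS+Tβ4 kidneys and 82.1 ± 20.0 CPM in LPS kidneys (log2 change -0.85 ± 0.18, adjusted p = 0.032).

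Of the other inhibitors of the pathway, 8 of 16 tested rose in LPS against saline and 1 fell, with a median of 0.56. Among all tested genes, 20.9% rose and 22.2% fell there. Tnfaip3, the ubiquitin-editing enzyme A20 and itself an NF-kB target, averaged 42.0 ± 13.6 CPM in LPS+Tβ4 kidneys, 82.1 ± 13.1 CPM in LPS kidneys and 6.79 ± 1.68 CPM in saline kidneys. Its rise with LPS was 12.1-fold (log2 change 3.59 ± 0.30, edgeR adjusted p = 0.0001), and its LPS+Tβ4 change against LPS was -0.97 ± 0.27 (adjusted p = 0.070). Zc3h12a, the RNase Regnase, rose by 4.01 ± 0.64 in LPS kidneys, Trim30a by 3.65 ± 0.44, Usp18 by 3.47 ± 0.41 and Tnip2, an A20-binding protein, by 1.96 ± 0.17. In LPS+Tβ4 against LPS 2 of the 16 fell, namely Trim30a (-1.68 ± 0.40, adjusted p = 0.045) and Tnip2 (-0.72 ± 0.16, adjusted p = 0.039). Among all tested genes, 2.33% were called lower in that comparison. The gene that fell with LPS was Nkiras1, chosen here after its values were seen (-0.85 ± 0.22, adjusted p = 0.014). Nfkbid, another atypical IkB gene, was below the expression filter, at 1.44 ± 0.422 CPM in LPS+Tβ4 kidneys, 1.52 ± 0.251 CPM in LPS kidneys and 0.546 ± 0.252 CPM in saline kidneys.

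The ligase that ubiquitinates IkB proteins and the linear ubiquitin chain assembly complex (LUBAC), which builds the chains that bind NEMO, were taken as 1 list. In LPS against saline 3 of its 11 genes rose and 1 fell, beside 20.9% and 22.2% of all tested genes, and the median was 0.09; nothing is read from these counts for the list. Btrc, which recognises phosphorylated IkBα, had a log2 change of -0.32 ± 0.15 (edgeR adjusted p = 0.12), and Skp1a, a subunit of the same ligase, fell by 0.94 ± 0.13 (adjusted p = 0.00075). Ube2d3, a ubiquitin-conjugating enzyme, rose by 0.62 ± 0.22 (adjusted p = 0.046). The LUBAC genes Rnf31 (1.66 ± 0.16, adjusted p = 0.00019) and Sharpin (1.16 ± 0.12, adjusted p = 0.00022) rose with LPS. They were also the 2 of 11 that fell in LPS+Tβ4 against LPS, Rnf31 by 0.64 ± 0.16 (adjusted p = 0.048) and Sharpin by 0.67 ± 0.12 (adjusted p = 0.020). Among all tested genes, 2.33% were called lower there. Sharpin averaged 35.4 ± 2.32 CPM in LPS+Tβ4 kidneys, 56.3 ± 4.41 CPM in LPS kidneys and 25.3 ± 1.67 CPM in saline kidneys, with no overlap between groups.

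Of the alternative pathway, through which Nfkb2 is processed and Relb released, 7 of 11 tested genes rose in LPS against saline and 0 fell. The median of the 11 was 1.23. Among all tested genes, 20.9% rose and 22.2% fell there. Birc3 and Birc2, ubiquitin ligases that keep NIK low, rose by 3.85 ± 0.28 and 1.59 ± 0.18 (edgeR adjusted p = 7.2e-05 and 0.00039). Tnfrsf12a, the receptor of the cytokine TWEAK, rose by 3.57 ± 0.42 (adjusted p = 0.00042), Cd40 by 3.60 ± 0.76 (adjusted p = 0.0059) and Traf2 by 0.89 ± 0.12 (adjusted p = 0.00074). In LPS+Tβ4 against LPS 1 of 11 passed, beside 6.83% of all tested genes. This was Birc3, which averaged 69.5 ± 25.1 CPM in LPS+Tβ4 kidneys, 161 ± 17.0 CPM in LPS kidneys and 11.2 ± 1.19 CPM in saline kidneys, a change of -1.21 ± 0.25 between the first 2 (adjusted p = 0.031). Ligand genes of this pathway (Lta, Ltb, Tnfsf11, Tnfsf13b and Tnfsf14) did not reach the expression filter.

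**Figure D5:**
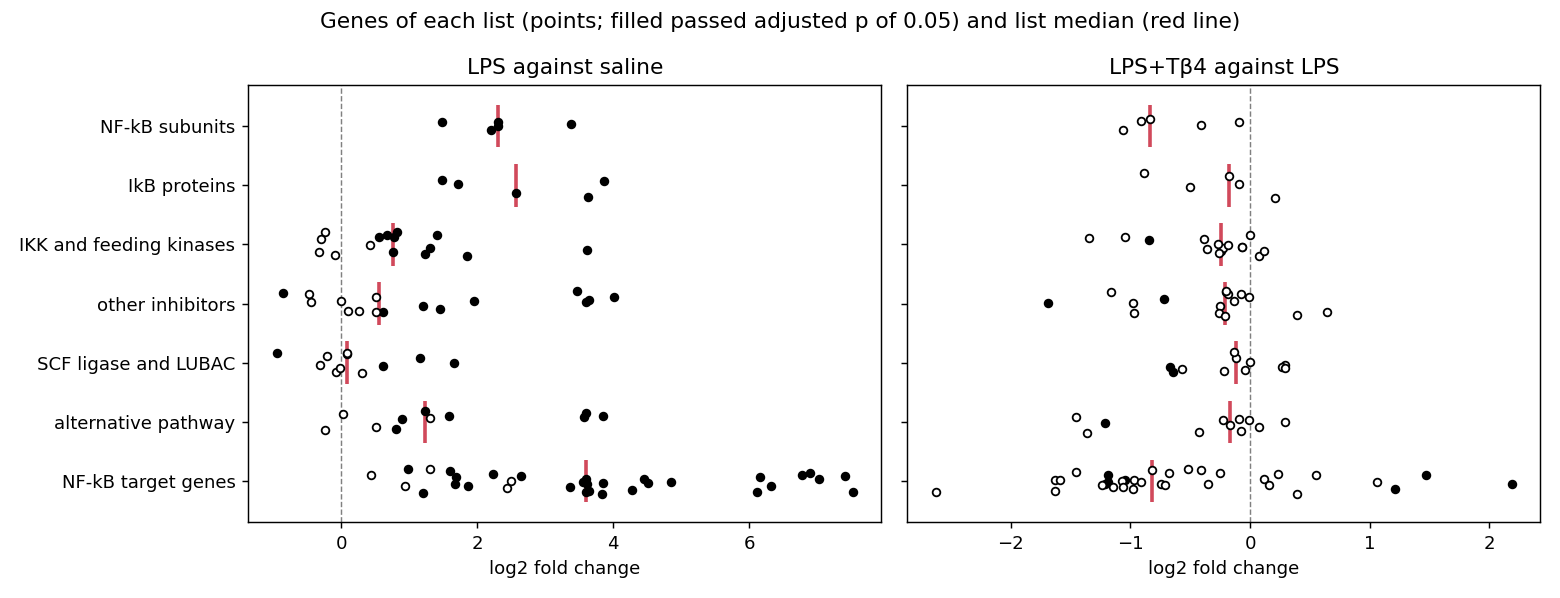
log2 fold changes of the tested genes of 7 lists (points, filled where the edgeR adjusted p was under 0.05) with list medians as red lines, for LPS against saline (left) and LPS+Tβ4 against LPS (right). In the left panel the medians of the subunits (2.30), the IkB proteins (2.58) and the target genes (3.60) lie to the right of those of the other lists, and in the right panel the medians of the subunits (-0.84) and target genes (-0.82) lie farthest to the left.

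Downstream, 28 of 33 tested textbook NF-kB target genes rose in LPS against saline and 0 fell, beside 20.9% and 22.2% of all tested genes. The median of the 33 was 3.60. Cxcl5, a neutrophil chemokine, rose by 7.52 ± 0.30 (edgeR adjusted p = 2.7e-05) and Lcn2, the injury marker NGAL, by 7.41 ± 0.58 (adjusted p = 8.6e-05). In LPS+Tβ4 against LPS 4 of the 33 fell and 3 rose, beside 2.33% and 4.5% of all tested genes, with a median of -0.82. Icam1, a leukocyte adhesion molecule, averaged 83.3 ± 10.03 CPM in LPS+Tβ4 kidneys, 172 ± 37.0 CPM in LPS kidneys and 13.7 ± 1.61 CPM in saline kidneys (change against LPS -1.04 ± 0.18, adjusted p = 0.021). Cxcl5 fell by 1.19 ± 0.22 (adjusted p = 0.024), Birc3 is given above, and Irf1, an interferon-regulated transcription factor, fell by 1.19 ± 0.29 (adjusted p = 0.048). Those that rose were the adhesion molecule Vcam1 (1.21 ± 0.25, adjusted p = 0.033), the cytokine Il1b (2.19 ± 0.54, adjusted p = 0.049) and Bcl2a1b (1.47 ± 0.36, adjusted p = 0.048). Irf1 and the last 3 genes were chosen after their values were seen.

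Il1b and Bcl2a1b are expressed in myeloid cells, whose markers did not move as 1 group in LPS+Tβ4 against LPS. Itgam was at 24.4, 20.0 and 42.2 CPM in LPS+Tβ4 kidneys, 10.7, 10.6 and 14.3 CPM in LPS kidneys and 1.22, 1.62 and 0.573 CPM in saline kidneys. Cd68 was at 19.8, 11.1 and 20.9 CPM in LPS+Tβ4 kidneys, 34.2, 21.5 and 19.9 CPM in LPS kidneys and 2.94, 2.45 and 1.57 CPM in saline kidneys. Itgam ranges were apart and Cd68 ranges overlapped between the groups given LPS, as did those of S100a8 and S100a9. Of the 6 leukocyte markers tested, edgeR called 0 in LPS+Tβ4 against LPS; at an unadjusted p under 0.05, 3 were higher (Itgam, Adgre1 and Csf1r). DESeq2 called those 3 higher, beside 1370 of its 14952 tested genes. From limma came 0, beside 759 of 15015 tested genes called higher on log2(FPKM + 1) and 737 on log2(FPKM + 0.1). The part of these markers in the rises of Il1b and Bcl2a1b was not tested.

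A short list of genes known to need IkBζ in LPS-treated macrophages was read beside Nfkbiz. All 6 tested of 9 rose in LPS kidneys, beside 20.9% of all tested genes, with a median of 6.47. Among them were Csf3 (6.16 ± 0.54, edgeR adjusted p = 0.00012), Il6 (6.78 ± 1.05, adjusted p = 0.0014) and Edn1 (3.03 ± 0.33, adjusted p = 0.00027). Cxcl5 was the 1 of 6 that passed in LPS+Tβ4 against LPS, beside 6.83% of all tested genes, and the median was -0.56. Lcn2 averaged 3325 ± 1556 CPM in LPS+Tβ4 kidneys, 6267 ± 2910 CPM in LPS kidneys and 36.8 ± 2.35 CPM in saline kidneys, and its change against LPS was -0.91 ± 0.44 (adjusted p = 0.24). Csf3 had a change of -0.71 ± 0.42 there (adjusted p = 0.33).

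The calls of LPS+Tβ4 against LPS that are named in these lists depended on single libraries and on the test. Of the 12 genes called there over all the lists, DESeq2 called 12. In a fit of only the 6 libraries compared, or with the urothelial covariate, 0 of the 12 were called. Library totals alone and no expression filter each left 6, and the uroplakin covariate, chosen after seeing the data, left 10. The urothelial covariate includes Krt20, which itself rose with LPS. Over all tested genes, calls went from 1025 to 2442 with DESeq2, 3 with only the 6 libraries and 51 with the urothelial covariate. They were 841 with library totals alone, 647 with no expression filter and 1127 with the uroplakin covariate. Without the second LPS library or the second LPS+Tβ4 library 0 of the 12 were called, without the first LPS+Tβ4 library 1, without the third LPS library 3, without the first LPS library 9 and without the third LPS+Tβ4 library 10. Over all tested genes, 102, 68, 198, 462, 2672 and 935 were called without those libraries, in the same order. Without a saline library 2 to 4 of the 12 were called, and 341 to 454 of all tested genes. The losses among the 12 thus went with losses over all genes in most of these fits. Over 20 alternatives, the call was lost in 6 for Icam1 and Cxcl5, 8 for Sharpin, 10 for Tbk1, 11 for Birc3, 12 for Trim30a, 14 for Tnip2, 15 for Irf1 and 16 for Rnf31. Of the genes that rose, Vcam1 lost its call in 10 of 19 alternatives, Bcl2a1b in 13 and Il1b in 15. In LPS against saline, 54 genes were called over the lists. Of these, 32 were called with the urothelial covariate, 54 with the uroplakin covariate and 51 to 54 with 1 library left out. In LPS+Tβ4 against saline, 45 were called. Of these, 33 were called with the urothelial covariate, 45 with the uroplakin covariate and 35 to 45 with 1 library left out. Over all tested genes, the urothelial covariate took calls from 6473 to 1851 and from 3617 to 1499 in these 2 comparisons. The uroplakin covariate took them to 7338 and 4495. The lists share genes, Birc3, Cd40 and Tnfaip3 among them, so their counts are not separate evidence.

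Likeness across the 9 libraries was measured as the root mean square difference of log2 CPM after each gene was centred on its own mean, over the 11601 tested genes whose FPKM averaged 1 or more. Rela was closest to Apbb3 (0.150) and Atf4 (0.154), and Nfkb1 to Eif1a (0.095) and Plscr3 (0.110). Relb was closest to Birc3 (0.236) and Nlrc5 (0.268). Rel came nearest to Ddit4 (0.159) and Anxa3 (0.221), and Nfkb2 to Slc25a24 (0.187) and Cd44 (0.211). Among the IkB genes, Nfkbia was closest to Tuba1a (0.127) and Efhd2 (0.176), Nfkbib to Manf (0.185) and Trmt61a (0.198), and Nfkbie to Trmt61a and Plp2 (0.140 each). Nfkbiz was closest to H2-Q4 (0.208) and Icam1 (0.223). Bcl3 was closest to Cp (0.294) and C1ra (0.311).

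Within the set the closest pair was Nfkb1 and Nfkbie, at 0.220, followed by Nfkbib and Nfkbie at 0.293. Nfkb1 and Bcl3 were the farthest apart, at 1.30. Rela differed from its inhibitor gene Nfkbia by 0.605, and Relb from its partner Nfkb2 by 0.582. The libraries that set Rela and Nfkbia apart can be read from their values: the third LPS library held the highest Rela (208 CPM) and the lowest Nfkbia of its group (71.6 CPM).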

How the data were processed

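Poly(A) RNA of kidney was sequenced as stranded paired-end libraries, per the labels' protocols, 1 library a mouse. Build GRCm38 and the tools HISAT2 2.2.1, StringTie 2.1.6, cutadapt 1.9, edgeR and DESeq2 are named in the submitters' processing notes. How reads were counted, with which strand setting and annotation, is not given in the sources used here. In the deposited table are the authors' raw counts per gene and the authors' FPKM values, for 34310 genes in 9 libraries of 53.0 to 62.0 M counts. Nothing in the labels says more about the mice, so p-values measure only the spread between these samples.

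All 9 libraries entered 1 quasi-likelihood fit of the counts in edgeR 4.0.16 (R 4.3.3), scaled by TMM and without covariates, from which 3 comparisons were tested 2-sided. The 15015 genes whose FPKM averaged 0.5 or more were tested, with Benjamini-Hochberg adjustment over all of these and 0.05 as the threshold. CPM is after TMM scaling. The SE is the change divided by the square root of F. FPKM, used without TMM scaling, served for levels between genes and for sums and ratios of members. Ratios and list medians carry no test. edgeR's chain was tested on simulated data.

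The members and the 6 pathway lists were chosen with earlier results of these data known. All members are named; from each list come up to 5 genes with the smallest adjusted p in LPS against saline and up to 3 in LPS+Tβ4 against LPS, with Tnfaip3, Birc3, Nfkbid, Chuk, Ikbkb and Ikbkg always, and for each member the 2 genes most alike. Other genes named are marked. Leukocyte, endothelial, neural, erythroid, proximal tubule, other nephron and uroplakin markers were summed as CPM.

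Coordinates and exon overlaps are from GENCODE M21 (GRCm38), promoters from RefSeq. Alternatives were the filter (none, or a mean FPKM of 5), median-of-ratios scaling, library totals alone, DESeq2 1.42.0, limma 3.58.1 on log2(FPKM + 1) and log2(FPKM + 0.1), only the 6 libraries compared, a replicate block, urothelial and uroplakin covariates and each library left out. Figures were drawn with matplotlib 3.10.9.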

Additional observations from a re-analysis of the deposited data

How the results depend on the processing

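The rise of the 10 members in LPS kidneys held in 104 of 106 changes of setting (each member counted once per setting) and in 90 of 90 with a library left out. The 2 exceptions were Nfkb2 (edgeR adjusted p = 0.058) and Nfkbie (0.071) with a covariate for 7 urothelial genes, of which Krt20 itself rose with LPS. With that covariate 849 of 15015 tested genes were called higher. With the filter at a mean FPKM of 5, 6 members were tested in LPS against saline and in LPS+Tβ4 against saline, and 6 were called in each. Over all genes tested with that filter, 1911 and 1162 of 7029 were called higher, in the same order. Leaving out 1 library gave 10 called members in LPS against saline and 8 to 10 in LPS+Tβ4 against saline. Over all tested genes, 2445 to 3499 and 1168 to 2457 were then called higher, in the same order. In LPS+Tβ4 against saline the urothelial covariate gave 8 members (not Rela, edgeR adjusted p = 0.15, nor Rel, 0.12), beside 816 of 15015 genes called higher. The uroplakin covariate gave 10 members in each of these comparisons, beside 3627 and 2296 of 15015 genes called higher.

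In LPS+Tβ4 against LPS, DESeq2 called 4 members lower (Rela adjusted p = 0.0087, Relb 0.028, Rel 0.045, Nfkbiz 0.013) and the uroplakin covariate, chosen after seeing the data, 1 (Rela). Over all tested genes, DESeq2 called 1072 of 14952 lower and the uroplakin covariate 449 of 15015. Leaving out 1 library gave 0 to 2 members, with 2 without the first LPS library (Rela and Nfkbiz) and 1 without the third LPS+Tβ4 library (Relb). In the same order, 1165 of 15015 and 345 of 15014 tested genes were called lower. The sign turned for Nfkb2 with the urothelial (0.10) and uroplakin (0.073) covariates and without the first LPS (0.31) or second LPS+Tβ4 library (0.12); with 1 library left out it ran from -0.37 to 0.31. For Nfkbie it turned with the urothelial covariate (0.0094) and without those 2 libraries (0.10 and 0.014), over a range of -0.20 to 0.10. The cause was not tested.

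Over all tested genes, 6473 were called in LPS against saline, 1025 in LPS+Tβ4 against LPS and 3617 in LPS+Tβ4 against saline; the lowest and highest counts were 1851 and 7338, 3 and 2672, and 1499 and 4784. The count of 3 came from the fit of only the 6 libraries compared, and 2672 from leaving out the first LPS library. Scaling by library totals alone moved the median of all genes to 0.17, 0.05 and 0.20 in the 3 comparisons, and the share of calls that were higher to 58.6%, 80.0% and 68.9%, against 48.6%, 65.9% and 51.2% with TMM. With the replicate block, 10, 0 and 10 members were called in the same order, and 5284, 5 and 2474 genes; of the 12 pathway list genes called in LPS+Tβ4 against LPS it called 0. Deviations of same-numbered libraries correlated at -0.66 to 0.33. This gave no sign of pairing by number, which 3 libraries a group cannot exclude.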
